A study of Mus musculus with 5 samples.

Results

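The 44 genes described here encode proteins of the synaptic vesicle, of the machinery that docks, fuses and retrieves it, of the contact between the 2 sides of the synapse, and of the scaffold under the receiving membrane. The list was put together by what the proteins do, with earlier results of these data known. No threshold on a measured value enters it, but it was not drawn blind to the values. Of the 44 genes, 43 had at least 1 probe set that the array's annotation assigns to that gene alone, and Shank2 had none. All 43 also passed the filter on low signal, as did 14109 of the 18193 named genes, so they are 43 of the 14109 genes tested. For each gene the brightest probe set, by its mean over the 5 arrays, was used, and 34 of the 43 had further probe sets.

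The arrays held total RNA from 4 mouse medulloblastomas, which are tumours of the cerebellum, and from 1 mouse cerebellum at P5, read as postnatal day 5. The labels name the tissue and give no genotype, strain, sex or treatment for any array, and no age for the tumours. The series title places the tumours in Cxcr6 mutant mice and speaks of a Smoothened inhibitor, so neither can be assigned to single arrays, and tumour against P5 cerebellum is the comparison that the labels allow. A difference in age cannot be told apart from a difference between tumour and normal tissue. Titles begin with hmk for the cerebellum and medulloblastomas 3 and 4 and with ken for the other tumours, and the numbers of the tumours are names without order. Whether the tumours came from separate mice is not stated, so any p-value measures the spread between these arrays.

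At a chemical synapse, the incoming action potential opens calcium channels in the axon terminal, and calcium binding to synaptotagmin lets SNARE proteins on the vesicle and on the plasma membrane pull the membranes together and release transmitter. Vesicle proteins are then taken back by endocytosis and used again. Opposite the terminal, scaffold proteins of the postsynaptic density hold glutamate receptors in place. In the cerebellum, granule neurons are the most numerous cells. Their precursors divide after birth and switch on synaptic genes when they leave the cell cycle, and medulloblastomas driven by Hedgehog signalling arise from these precursors.

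Values are signals in the arbitrary units of the array, on a linear scale, and differences are tumour minus cerebellum in log2(signal + 32), given with the standard error (SE) of a limma fit over all 14109 genes. A gene was called at a Benjamini-Hochberg adjusted p under 0.05. With 1 cerebellum array the spread comes from the 4 tumours alone, and exact permutation of the labels, 4 to 1, reaches no p below 0.2. Signals of different genes come from different probes and are not compared with each other. In bulk tissue, fewer cells of a type and less RNA per cell cannot be told apart.

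Of the 43 genes, 1 was lower in the tumours by the adjusted test and 0 were higher, against 0.177% lower and 0.312% higher among all genes tested. The called gene was Dlg2, which encodes PSD-93, a scaffold of the postsynaptic density. At an unadjusted p under 0.05, 6 were lower (Syn1, Stx1a, Vamp2, Unc13a, Dlg2 and Dlg4; background 7.44%) and 2 were higher (Snap25 and Nlgn1; background 7.72%). Counted without a test, 13 genes lay below the cerebellum in all 4 tumours and 6 above it, where 30.8% and 25.1% of all genes did so. The 13 are near the background share, and the other 24 genes lay on different sides of the cerebellum in different tumours. Dlg2 was the 1 gene at least 2-fold below in every tumour as judged against a background of 2.63%, and 0 genes were at least 2-fold above in every tumour (background 2.01%).

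The call depended on single arrays. Without medulloblastoma 1, 7 genes were lower (Syn1, Syn2, Syt1, Stx1a, Vamp2, Snap91 and Dlg2), while the share of all genes called lower grew from 0.177% to 2.71%. Without medulloblastoma 2, 3 or 4 none was called, with limma adjusted p-values for Dlg2 of 0.115, 0.0629 and 0.0840. Over all 14109 genes these fits called 0, 6 and 0 lower and 2, 10 and 0 higher, so hardly any gene was called there. Within the hmk arrays, 12 were lower and 1, Snap25, was higher, with the spread taken from 2 tumours, and 5.96% of all genes were lower and 5.93% higher there. With the ken tumours set against the cerebellum 0 were called, and of all 14109 genes 16 were lower and 21 higher.

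The median difference of the 43 genes was -0.31, against -0.07 for all genes. The tumours did not share it. Their medians were 0.31 in medulloblastoma 1, -0.38 in medulloblastoma 2, -0.77 in medulloblastoma 3 and -0.45 in medulloblastoma 4, while the median of all genes stayed between -0.07 and -0.04. In medulloblastoma 1, 29 of the 43 genes were above the cerebellum, and 15, 6 and 9 were above it in medulloblastomas 2, 3 and 4. Of all genes, 46.0% to 47.6% were above it in each tumour. At least 2-fold above were 7 of the 43 in medulloblastoma 1, against 5.75% of all genes, and at least 2-fold below were 15 in medulloblastoma 3, against 13.5%. Scaling the arrays to equal medians moved the median of all genes to 0.12. Relative to all genes, the median of the synapse genes was -0.24 in the scaling used and -0.23 with equal medians, and that of medulloblastoma 1 was 0.36 and 0.37.

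**Figure D1:**
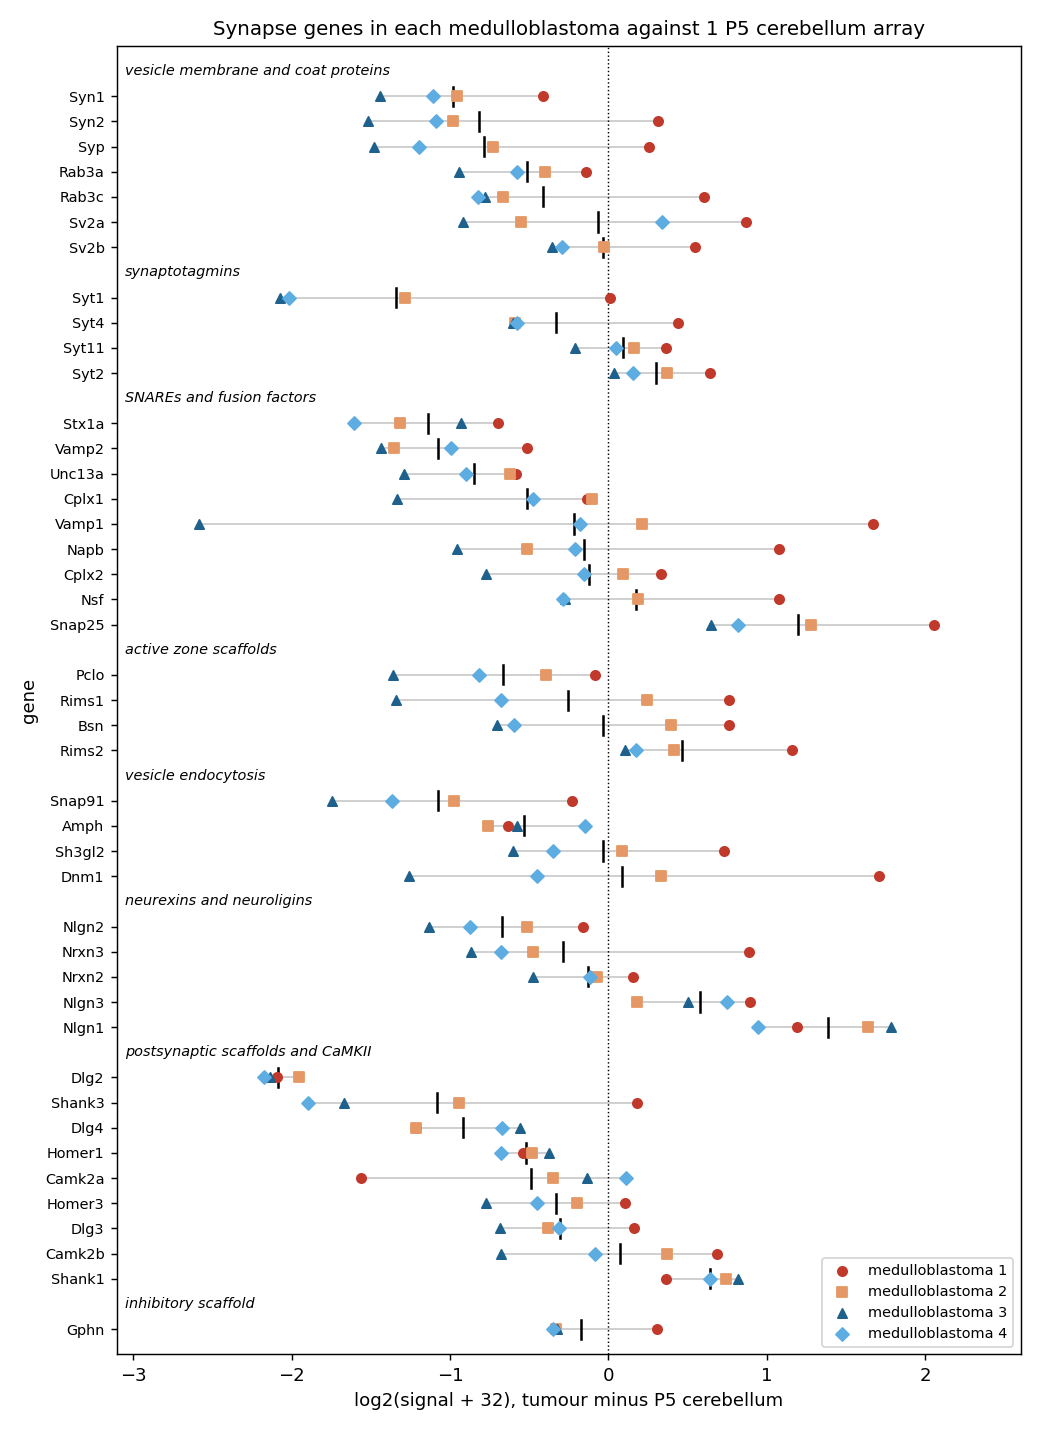
Difference of each tumour from the P5 cerebellum in log2(signal + 32) for the 43 measured genes, grouped by role. Coloured symbols are the 4 tumours, 1 array each, black ticks are the mean of the tumours and the dotted line is the cerebellum. Medulloblastoma 1 lies furthest to the right for 35 genes, and the symbols of Dlg2 lie together near -2.09.

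A search of promoters is shown first, because several of these genes are known targets of REST, a repressor that keeps neuronal genes silent outside neurons and binds the RE1 element, and of CREB, which binds the cyclic AMP response element. RefSeq promoter windows of GRCm38.p6, from 250 bases before to 50 after each start, matched 35 of the 44 genes with 51 windows. Both strands were searched for the left arm of RE1 (TCAGCACC), its right arm (GGACAGCG) and the cyclic AMP response element (TGACGTCA). The left arm was in 3 windows of the 51 (Nlgn1, Syn1 and Unc13a) and in 1.65% of all 32851 windows. For the right arm it was 1 window (Unc13a) and 1.26% of all, and for the cyclic AMP response element 2 windows (Syn1 and Sh3gl2) and 1.79% of all. The 3 Dlg2 windows held none of these letters. A match describes the letters in the window and is not evidence of binding.

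The stretches before the start sites that hold a match are printed 5′ to 3′ on the strand of the gene, with the match in capitals. In Syn1 the left arm of RE1 begins at position -231 from the start and the cyclic AMP response element at -159. For Sh3gl2 the capitals are the cyclic AMP response element at -37, and for Nlgn1 the left arm of RE1 at -152 from its downstream start. In Unc13a both arms lie on the opposite strand just after the start, the right arm first, with 8 bases between them, and only these 24 bases are printed.
Syn1, chrX:20920919-20921168, minus strand: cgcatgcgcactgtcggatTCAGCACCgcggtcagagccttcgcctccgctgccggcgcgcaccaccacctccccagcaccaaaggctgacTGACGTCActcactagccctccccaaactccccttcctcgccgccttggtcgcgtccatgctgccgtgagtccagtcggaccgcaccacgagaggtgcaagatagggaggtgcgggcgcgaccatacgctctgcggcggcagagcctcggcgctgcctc
Sh3gl2, chr4:85205206-85205455, plus strand: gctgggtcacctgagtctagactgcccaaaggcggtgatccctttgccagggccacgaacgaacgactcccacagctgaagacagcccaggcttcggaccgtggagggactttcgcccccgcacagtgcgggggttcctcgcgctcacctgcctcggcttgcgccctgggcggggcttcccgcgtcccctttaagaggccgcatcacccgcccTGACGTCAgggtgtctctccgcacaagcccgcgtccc
Nlgn1, chr3:26153987-26154236, minus strand: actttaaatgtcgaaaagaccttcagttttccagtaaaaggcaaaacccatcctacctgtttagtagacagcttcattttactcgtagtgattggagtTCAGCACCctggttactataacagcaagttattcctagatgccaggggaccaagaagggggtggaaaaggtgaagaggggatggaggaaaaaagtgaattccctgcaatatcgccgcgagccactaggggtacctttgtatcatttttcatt
Unc13a, chr8:71671728-71671751, minus strand: CGCTGTCCgcgcccccGGTGCTGA
The 4 genes did not share a direction: Syn1 and Unc13a lay below the cerebellum in all 4 tumours, Nlgn1 above it in all 4, and Sh3gl2 on both sides, as given with their values next.

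At the brightest probe sets, genes of the vesicle membrane and its coat were below the cerebellum in medulloblastomas 2 to 4 except for Sv2a in medulloblastoma 4. In medulloblastoma 1 they were mostly above or near it. The median of the 7 genes was -0.52, and none was called. By tumour the medians were 0.31, -0.66, -0.95 and -0.83. Syn1, a synapsin that tethers vesicles to each other and to actin, read 1940, 1323, 936 and 1185 in medulloblastomas 1 to 4 and 2592 in the cerebellum. All 4 tumours were below it, with a difference of -0.98 ± 0.37 (SE; limma adjusted p = 0.280). Its relative Syn2 read 2300, 920, 624 and 850 against 1844, with medulloblastoma 1 above the cerebellum and the others below (-0.82 ± 0.59). The other bright probe sets of Syn2 differed by -0.94, 0.32 and -0.24, and medulloblastoma 3 was highest at the 1 of opposite sign. For Syp, which encodes synaptophysin, the abundant membrane protein used to stain synapses, the signals were 3754, 1884, 1104 and 1351 against 3142. Again medulloblastoma 1 alone was above, and the difference was -0.79 ± 0.56. A second, much dimmer probe set of Syp read 262, 306, 92.3 and 29.5 against 134, with medulloblastomas 1 and 2 above. Rab3a, a small GTPase that accompanies vesicles to the release site, read 5154, 4296, 2933 and 3798 against 5678 and was below in all 4 (-0.52 ± 0.30).

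Rab3c, a close relative of Rab3a, read 2039 in medulloblastoma 1 and 828, 762 and 736 in the others, against 1330 (-0.42 ± 0.52). Its 3 other probe sets that averaged at least 100 in signal were above the cerebellum in all 4 tumours, by 0.70, 0.45 and 1.18 on average, so its direction depends on the probe set. The transporter-like vesicle proteins Sv2a and Sv2b straddled the cerebellum. Sv2a read 2286, 834, 641 and 1573 against 1239 (-0.07 ± 0.60) and Sv2b read 3317, 2218, 1754 and 1834 against 2258 (-0.03 ± 0.35). Their signs turned under equal medians, to 0.12 and 0.16. A second probe set of Sv2b was above the cerebellum in all 4 tumours, by 0.44 on average, so its direction also depends on the probe set.

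Among the synaptotagmins, the fast calcium sensor Syt1 stood lowest in medulloblastomas 3 and 4. It read 4518, 1829, 1043 and 1087 against 4494, so medulloblastoma 1 matched the cerebellum closely (0.01) and the others differed from it by -1.28, -2.07 and -2.02. Over the 4 tumours the difference was -1.34 ± 0.70 (limma adjusted p = 0.394). Its 3 other bright probe sets were also lower on average, by -0.90, -1.19 and -0.19. Syt2, the fast sensor of many hindbrain synapses, read 876, 719, 564 and 616 against 550 and was above in all 4 (0.30 ± 0.32), although 1 of its other probe sets differed by -0.34. Syt4 read 2438 in medulloblastoma 1 and 1176, 1168 and 1188 in the others, against 1786. It encodes a synaptotagmin that does not bind calcium in the usual way, and its difference was -0.33 ± 0.42. Syt11 read 5129, 4453, 3435 and 4129 against 3987 (0.09 ± 0.25), but 3 of its 4 other probe sets had the opposite sign, and the brightest of them was below in all 4 (-0.58). None of the 4 was called, and their median was -0.12, which became 0.07 with equal medians.

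The SNARE proteins of the release site did not move together. Snap25 encodes a plasma membrane SNARE, and its signals were 15503, 9054, 5823 and 6569 against 3712. All 4 tumours were above the cerebellum, medulloblastoma 1 by 2.05 log2 units and medulloblastoma 3 by 0.65, with a difference of 1.20 ± 0.47 (limma adjusted p = 0.292). A second, dimmer probe set of Snap25 was also higher, by 0.72. Its partners were on the other side. Stx1a, syntaxin 1A of the plasma membrane, read 1120, 720, 951 and 582 against 1840 (-1.14 ± 0.37; limma adjusted p = 0.232), and Vamp2, the main SNARE of the vesicle, read 3682, 2041, 1925 and 2627 against 5261 (-1.07 ± 0.35; limma adjusted p = 0.238). Both were below in all 4 tumours, and the second probe sets of the pair were lower by -1.43 and -1.32.

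**Figure D2:**
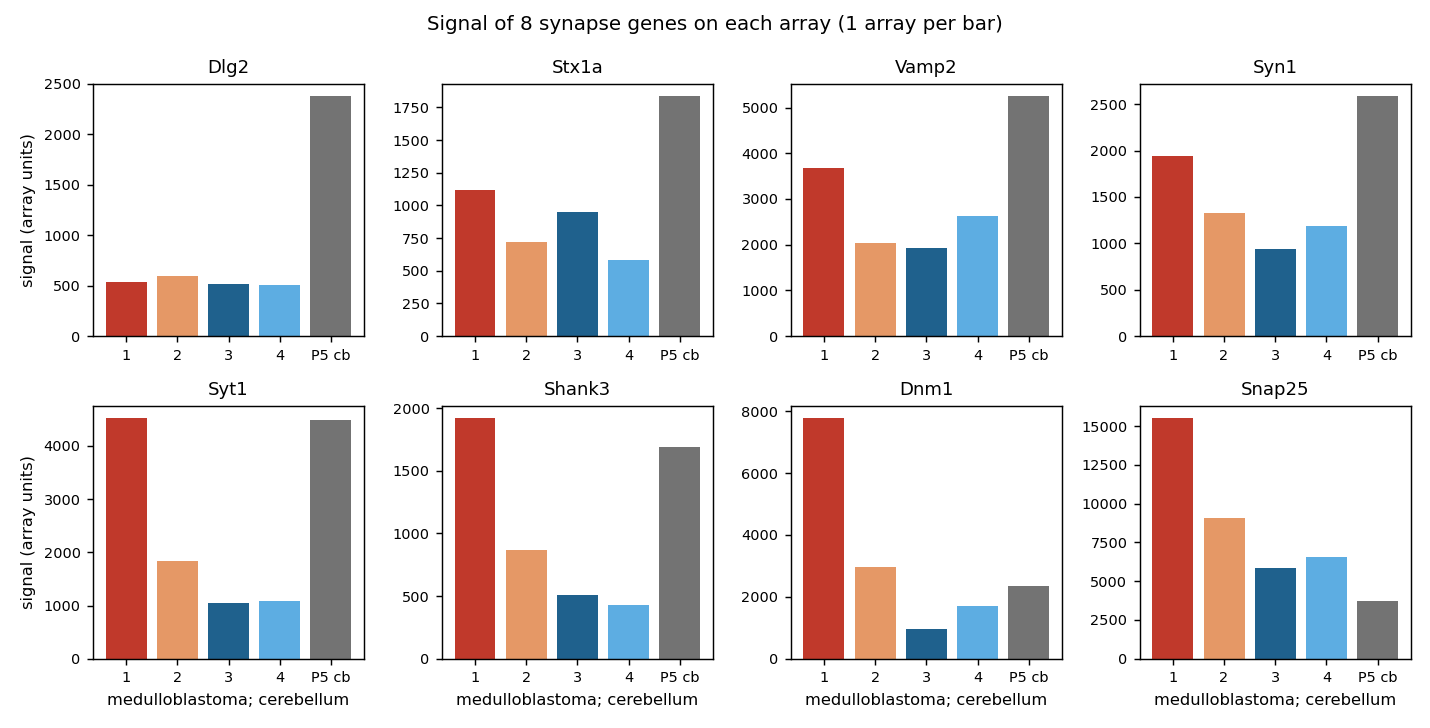
Signal (array units, linear scale from 0, own scale for each gene) of 8 synapse genes in medulloblastomas 1 to 4 and the P5 cerebellum, 1 array per bar and no error bar. Dlg2 is near 500 to 600 in each tumour and 2383 in the cerebellum, Snap25 is lowest in the cerebellum, and Syt1, Shank3 and Dnm1 are highest in medulloblastoma 1.

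Vamp1, a vesicle SNARE of fast motor and hindbrain circuits, varied most among the tumours. It read 1484, 519, 47.4 and 387 against 444 (-0.22 ± 1.24), with medulloblastoma 1 highest and medulloblastoma 3 at a low signal that allows no exact fold. A dimmer probe set of Vamp1 was again lowest in medulloblastoma 3, at 91.9, but highest in medulloblastoma 2, at 264, against 275 in the cerebellum. The complexins, which clamp and then promote fusion, varied less among the tumours. Cplx1 read 7096, 7245, 3076 and 5597 against 7792 and was below in all 4 (-0.51 ± 0.43). Its other probe sets differed by -0.53 and -0.85. At the first of them medulloblastoma 1 was slightly above the cerebellum, at 3092 against 2998. For Cplx2 the signals were 4931, 4160, 2279 and 3511 against 3909 (-0.13 ± 0.38).

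Unc13a encodes Munc13-1, which primes docked vesicles for fusion, and carries the RE1 arms printed above. It read 566, 552, 335 and 449 against 864, below in all 4 tumours, with a difference of -0.85 ± 0.35 (limma adjusted p = 0.314). Genes whose proteins take spent SNARE complexes apart were not uniformly lower at the brightest probe sets. Nsf, the ATPase, read 5322, 2852, 2071 and 2051 against 2506 (0.18 ± 0.48). Its other bright probe sets differed by -0.17 and -0.12, so its direction depends on the probe set. Napb, the neuronal adaptor of Nsf, read 3039, 987, 718 and 1228 against 1424 (-0.15 ± 0.64). The 9 SNARE and fusion genes had a median of -0.22, with 0.33, -0.10, -0.96 and -0.29 in the 4 tumours, and none was called; with equal medians the value for medulloblastoma 2 became 0.07.

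The active zone is the protein mesh where vesicles dock. The medians of its 4 scaffold genes were 0.76 and 0.32 in the ken tumours and -1.02 and -0.64 in the hmk tumours; with all probe sets averaged those of the ken tumours became 0.14 and -0.09. Over all 4 tumours the median was -0.15, or 0.04 with equal medians. Prefix and tumour cannot be told apart here. Rims1, which links vesicles to calcium channels, read 1404, 972, 304 and 499 against 817 (-0.25 ± 0.69). Bsn, bassoon, read 1299, 998, 451 and 486 against 753 (-0.04 ± 0.56). At these probe sets of Rims1 and Bsn, the ken tumours were above and the hmk tumours below the cerebellum. A second probe set of Bsn went against this, at 245, 451, 469 and 365 against 395, with medulloblastoma 1 lowest. Pclo, piccolo, kept the order of the tumours but lay below in all 4 at its brightest probe set, at 1517, 1215, 606 and 900 against 1607 (-0.66 ± 0.45). Its other probe sets put medulloblastoma 1 above the cerebellum, by 0.32 and 0.64, and the other tumours below. Rims2 lay above in all 4, at 1805, 1065, 851 and 896 against 791 (0.46 ± 0.41). Of its 3 other probe sets with a mean of at least 100, the dimmest had the opposite sign, -0.56. None of the 4 was called.

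At the brightest probe sets, genes of vesicle retrieval gave the same order of tumours for 3 of 4. Snap91 encodes AP180, a clathrin adaptor of the terminal, and read 2423, 1431, 826 and 1085 against 2845. All 4 tumours were below (-1.08 ± 0.50; limma adjusted p = 0.354). Dnm1, dynamin 1, which pinches off the new vesicle, read 7768, 2979, 966 and 1718 against 2357, an 8.04-fold range among tumours. Medulloblastomas 1 and 2 were above and 3 and 4 below, the difference was 0.08 ± 0.89, and a second probe set showed the same highest and lowest tumour. Sh3gl2, endophilin A1, which bends membrane and recruits the uncoating enzyme, read 6772, 4329, 2680 and 3197 against 4079 (-0.03 ± 0.44). Both other probe sets of Sh3gl2 had the opposite sign, 0.18 and 0.17, and a different order, with medulloblastoma 4 lowest. Amph, amphiphysin, departed from the order 1, 2, 4 and 3 of the brightest probe sets, with 1172, 1071, 1221 and 1655 against 1839. It was below in all 4 and nearest to the cerebellum in medulloblastoma 4 (-0.53 ± 0.29). The median of the 4 was -0.28, and none was called.

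Neurexins on the axon and neuroligins on the dendrite bind each other across the cleft. Nrxn2 read 1394, 1182, 888 and 1148 against 1247 (-0.13 ± 0.29), but a second probe set of Nrxn2 read 553, 147, 115 and 201 against 732, which is -1.64. Nrxn3 read 2346, 892, 672 and 772 against 1256 (-0.29 ± 0.59), and its 3 other bright probe sets differed by -1.73, -0.91 and -0.19. For both neurexins medulloblastoma 1 was highest at each of these probe sets. Nlgn2, the neuroligin of inhibitory synapses, read 3724, 2905, 1883 and 2264 against 4169 and was below in all 4 (-0.67 ± 0.35).

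The other two neuroligins had low signals and probe sets that disagreed. Nlgn1, of excitatory synapses, read 208, 296, 331 and 171 against 73.6, above in all 4 (1.39 ± 0.48; limma adjusted p = 0.256), while its second, dimmer probe set read 41.5, 20.8, 35.4 and 20.8 against 115. Nlgn3 read 278, 158, 205 and 249 against 135 (0.58 ± 0.45). A probe set of almost the same mean signal read 114, 197, 191 and 153 against 366, the opposite direction, and the other one was higher by 1.43. The direction of both genes is therefore uncertain, and the median of the 5 adhesion genes, -0.13, became 0.06 with equal medians. None was called.

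On the receiving side, Dlg2 was lower in every tumour by a similar amount. It read 536, 591, 517 and 504 against 2383, with tumours that differed from each other by an SD of 0.10 log2 units and lay -2.09, -1.95, -2.14 and -2.17 from the cerebellum. The difference was -2.09 ± 0.26 (limma adjusted p = 0.0262, lower in 4 of 4 tumours). Both other probe sets of Dlg2 were below the cerebellum in all 4 as well, at 79.6, 146, 143 and 157 against 265 and at 63.1, 52.7, 102 and 34.9 against 436. Their order of tumours differed from that of the brightest, and with all 3 averaged the adjusted p was 0.0985. Unlike most genes of the list, Dlg2 was not highest in medulloblastoma 1.

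Its relatives were nearer to the cerebellum. Dlg4, which encodes PSD-95, read 366, 366, 596 and 548 against 893, below in all 4 and lowest in the ken tumours (-0.92 ± 0.36; limma adjusted p = 0.298), and a second probe set gave -0.95. Dlg3, or SAP102, the form prominent early in development, read 1044, 707, 567 and 746 against 932 (-0.31 ± 0.35). Among the scaffolds that link the receptor complexes to the cytoskeleton, Shank3 read 1919, 867, 509 and 431 against 1692 (-1.08 ± 0.68). Medulloblastoma 1 alone was above the cerebellum in Shank3, and medulloblastoma 4 was lowest. Shank1 was dim, at 143, 196, 207 and 180 against 104, above in all 4 (0.64 ± 0.47). Homer1, an adaptor between Shank proteins and metabotropic receptors, read 596, 619, 672 and 537 against 879 (-0.52 ± 0.27), below in all 4, although 1 of its 4 other probe sets with a mean of at least 100 was higher by 0.60. Homer3, the form of Purkinje cell dendrites, read 1307, 1057, 698 and 881 against 1216 (-0.33 ± 0.35).

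The kinase genes Camk2a and Camk2b encode the subunits of CaMKII, the calcium-activated kinase of the postsynaptic density. Camk2b, the main form of granule neurons, read 1595, 1275, 601 and 923 against 981 (0.07 ± 0.47). Camk2a was dim at all 6 of its probe sets, and the brightest read 52.0, 163, 194 and 236 against 216 (-0.49 ± 0.68). The median of the 9 postsynaptic genes was -0.49, with 0.10, -0.38, -0.68 and -0.45 in the 4 tumours, and Dlg2 was the 1 called. Gphn, gephyrin, the scaffold of inhibitory synapses, read 1928 in medulloblastoma 1 and 1227, 1234 and 1210 in the others, against 1552 (-0.17 ± 0.31). Another probe set of Gphn was above the cerebellum in all 4 tumours, by 0.85, and with equal medians the difference at the brightest was 0.02.

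The difference among the tumours at the brightest probe sets was the most general feature of the list. Medulloblastoma 1 was the highest of the 4 tumours for 35 of 43 genes, where 30.9% of all genes have it highest. Medulloblastoma 3 was the lowest for 30, against 26.1% of all genes, and medulloblastoma 4 for 8. Set against each other directly, medulloblastoma 1 exceeded medulloblastoma 2 in 37 genes, medulloblastoma 3 in 37 and medulloblastoma 4 in 39, with median differences of 0.54, 1.04 and 0.71, while between 47.7% and 50.1% of all genes were higher in medulloblastoma 1. Medulloblastoma 2 exceeded medulloblastomas 3 and 4 in 34 genes each (0.44 and 0.24), and medulloblastoma 3 exceeded 4 in 10. These are counts over genes of single arrays, with no replicate of any tumour and no test. Under equal medians medulloblastoma 1 was highest for 36 genes, under quantile normalization for 35 and with all probe sets averaged for 32.

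Of the 8 genes with another tumour highest, 5 encode postsynaptic scaffolds or CaMKII and 1 is Nlgn1. Within the roles, medulloblastoma 1 was highest for 7 of 7 vesicle membrane genes, 4 of 4 synaptotagmins, 8 of 9 SNARE and fusion genes, 4 of 4 active zone genes, 3 of 4 endocytosis genes and 4 of 5 adhesion genes, but for 4 of 9 postsynaptic genes. These are counts at the brightest probe sets. With all probe sets averaged they were 2 of 4 active zone genes, 3 of 4 synaptotagmins and 3 of 5 adhesion genes. The SNARE and fusion genes then had 9 of 9, and the other roles kept their counts. With a mean signal of at least 200 required, the postsynaptic count was 4 of 7. The difference between these shares was not tested. Most genes of the list also varied more than the average gene: the median SD among tumours was 0.48 against 0.31 over all genes, 35 of 43 genes were above that median, and 24 were at least 2-fold apart between their highest and lowest tumour, where 34.8% of all genes were.

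Further probe sets of the same genes gave a check that the choice of the brightest does not share, although they come from the same RNA. Of them, 60 averaged at least 100 in signal, from 32 genes, and 41 differed from the cerebellum in the same direction as the one used. Medulloblastoma 1 was highest at 36 of the 60, a smaller share than its 35 of 43 at the brightest probe sets. The lowest tumour was medulloblastoma 3 at 20 of the 60 and medulloblastoma 4 at 24, whereas medulloblastoma 3 was lowest at 30 of the 43 brightest. The low place of medulloblastoma 3 was thus much weaker at the further probe sets. Of all genes, at their brightest probe sets, 30.9% had medulloblastoma 1 highest and 26.1% had medulloblastoma 3 lowest. For the 21 genes at least 0.5 log2 units from the cerebellum, 25 other probe sets were bright enough, and 21 had the same sign.

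**Figure D3:**
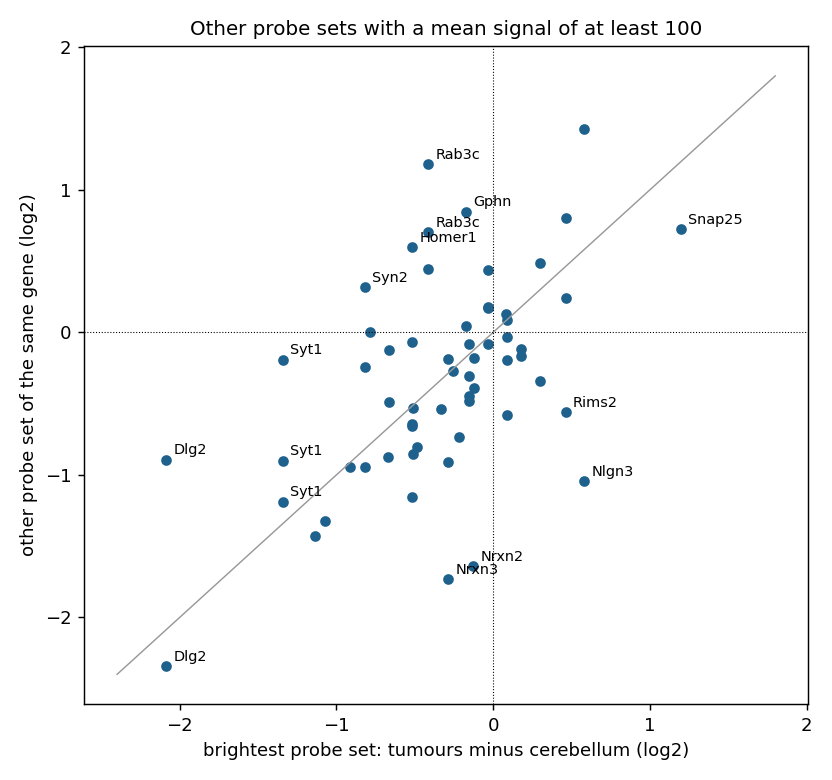
Tumours minus cerebellum (log2 of signal + 32) at the brightest probe set of a gene, on the horizontal axis, and at each of its other probe sets with a mean signal of at least 100, on the vertical axis. Each of the 60 points is 1 probe set, the diagonal marks equal differences, and points in the upper left and lower right, such as Rab3c and Nlgn3, have opposite signs.

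Signals summed over the 43 genes and over several neuronal lists ran in the order of medulloblastomas 1, 2, 4 and 3. Other values shared only part of this order. The summed signal of the 43 genes was 118090, 75170, 49870 and 62583 in medulloblastomas 1 to 4 and 89471 in the cerebellum. Over the 7 measured markers of mature granule neurons it was 31044, 15382, 7643 and 10522 against 8543, with medulloblastoma 1 highest and medulloblastoma 3 lowest for 7 of 7. Their median differences were 3.53, 2.19, 0.96 and 1.43, and 4 of the 7 were above the cerebellum in all 4 tumours. Markers of Purkinje cells summed to 36310, 21059, 9096 and 13982 against 40698 over 9 genes, and markers of inhibitory interneurons and Golgi cells to 4948, 2836, 1777 and 2556 against 8293 over 9. The Purkinje markers were split, with 4 below the cerebellum in all 4 tumours and 2 above. Pvalb, 1 of those above, read 7201, 3387, 1884 and 3062 against 638 and so raised the tumour sums. Neuronal genes outside the synapse summed to 71832, 57254, 46801 and 51450 against 92257 over 18 genes. The sum over markers of the oligodendrocyte lineage was also highest in medulloblastoma 1, at 41265, 25541, 23560 and 20877 against 21217 over 9 genes. Of the 41265, 28288 came from the myelin gene Mbp. Medulloblastoma 1 was highest for 4 of the 9, and the medians by tumour were 0.34, 0.22, 0.32 and 0.16. No marker of these 4 cell types was listed at 0, which does not show that each was detected. The interneuron marker Slc32a1 read 11.7 in medulloblastoma 3, and detection calls were not used. The 3′ over 5′ signal ratio of control genes, which rises when RNA is degraded or copied short, was also highest in medulloblastoma 1 and lowest in medulloblastoma 3, at 1.45, 1.34, 1.21 and 1.35 for actin and 0.946, 0.792, 0.731 and 0.785 for Gapdh, against 1.33 and 0.824 in the cerebellum. The part of these markers and of the ratio in the order of the synapse genes was not tested.

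Markers of granule neuron precursors, the cells from which Hedgehog-driven medulloblastomas arise, were above the cerebellum in all 4 tumours for 9 of 9 genes, with a median of 0.85 and sums between 63192 and 68764 against 29217, and they did not follow that order. The remaining marker lists had medians of -1.45 for astrocytes, 0.27 for the oligodendrocyte lineage, 1.48 for microglia and macrophages, -1.24 for endothelium and -1.51 for meninges. Of the markers of unipolar brush and deep nuclear neurons, 2 of the 5 with a probe set passed the filter on low signal (median -1.42), and of those of red blood cells 2 of 4 (0.01).

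**Figure D4:**
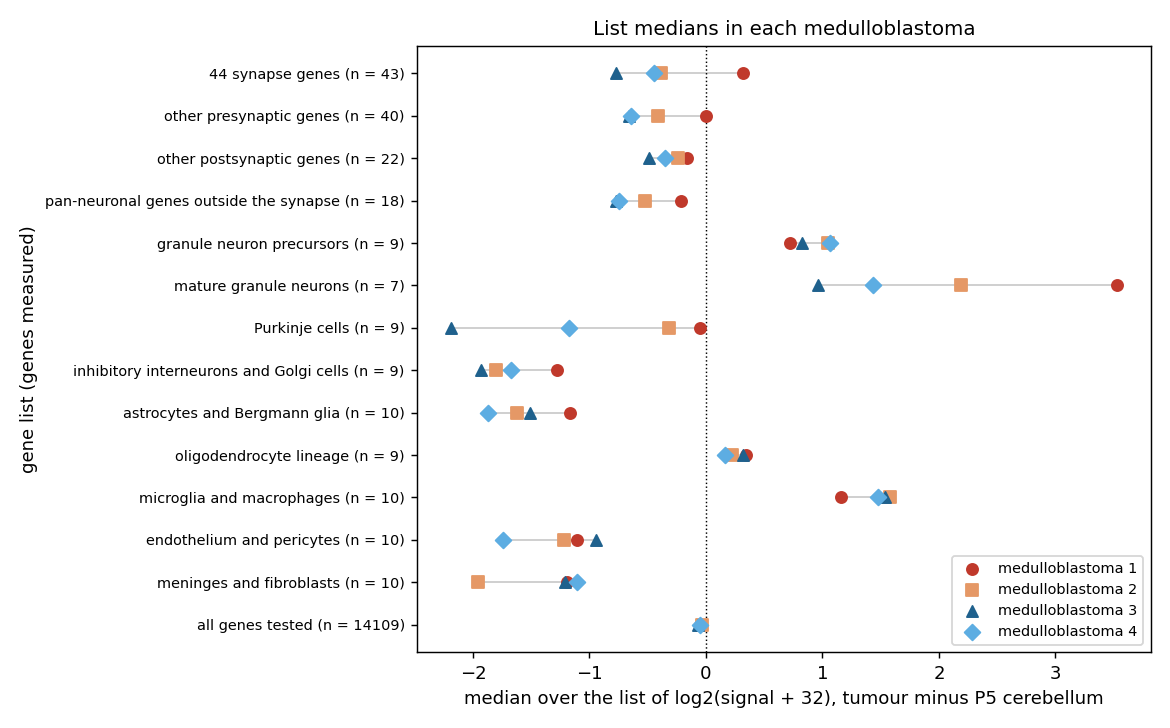
Median over each gene list of the difference from the P5 cerebellum in log2(signal + 32), with 1 symbol for each of the 4 tumours. For the synapse genes the symbols run from -0.77 in medulloblastoma 3 to 0.31 in medulloblastoma 1, and for mature granule neuron markers from 0.96 to 3.53, whereas all genes lie near 0.

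Other genes of the synapse had lower medians in medulloblastoma 1 than the 43 had. The 40 other presynaptic genes measured had a median of -0.44, with 0.00, -0.41, -0.66 and -0.64 in medulloblastomas 1 to 4, and 22 other postsynaptic genes had -0.32, with -0.17, -0.24, -0.49 and -0.35. No gene of either list was called. At an unadjusted p under 0.05, 2 other presynaptic genes were higher and 7 lower, and 0 and 3 of the other postsynaptic genes. Of the presynaptic genes, 19 were below in all 4 tumours and 5 above, and medulloblastoma 1 was highest for 30. Syn3, the synapsin expressed early in development, read 316, 182, 188 and 276 against 1206, below in all 4 by a difference of -2.22 ± 0.40 (limma adjusted p = 0.068), where Syn1 and Syn2 had -0.98 and -0.82. Unc13b, the second Munc13 gene, read 196, 256, 199 and 194 against 733 (-1.66 ± 0.36; limma adjusted p = 0.109), beside -0.85 for Unc13a. Of 18 neuronal genes outside the synapse, 11 were below in all 4 tumours, 1 was above and none was called, with a median of -0.59 and 7 lower at an unadjusted p under 0.05. Their medians by tumour were -0.21, -0.52, -0.78 and -0.75, and medulloblastoma 1 was highest and medulloblastoma 3 lowest for 12 of the 18 each. The neurofilament gene Nefl had the largest difference there, at 1277, 550, 286 and 327 against 5405 (-3.32 ± 0.68).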

How the data were processed

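Total RNA of 4 medulloblastomas and 1 P5 cerebellum had been hybridised to Affymetrix arrays. Per the labels, RNA was extracted with Trizol except for medulloblastoma 4, whose record states just a standard Affymetrix procedure. The deposited intensities, 1 per probe set on a linear scale, were made with MAS5 per the submitters' processing notes; for medulloblastoma 3 the tool is not given in the sources used here. Detection calls were not used. The number of arrays limits the precision.

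Of 45101 probe sets, 34945 had 1 gene symbol, giving 18193 genes, each represented by its brightest probe set. Genes averaging 100 or more in signal were tested on log2(signal + 32) with limma 3.58.1 in R 4.3.3 (lmFit, eBayes with a variance trend, two-sided, Benjamini-Hochberg over 14109 genes, 3 residual degrees of freedom). Differences on this scale understate the change of dim genes. Tumours were numbered in record order. The genes and lists were chosen with earlier results of these data known; all 44 genes are named where measured, and from other lists only genes among the 4 furthest from the cerebellum. The fit was tested on simulated data. Alternatives were other scalings, constants, filters, probe set rules, no variance trend, a looser threshold, each title prefix and each tumour left out.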

Additional observations from a re-analysis of the deposited data

Results flagged for a closer look

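In 3 of the 43 measured genes, medulloblastoma 1 stood far from the other 3 tumours on the log2 scale, by a gap that filled nearly the whole range of the 4 values (Dixon's ratio of gap to range, above its 95% critical value). Chance alone would do this in about 1 of 20 genes, and 3 of 43 is near that rate. The share over all genes was not computed. The ratio was 0.977 for Syt4, where the other tumours read 1168 to 1188 and medulloblastoma 1 read 2438. It was 0.958 for Gphn, where they read 1210 to 1234 and 1928, and 0.887 for Rab3c, at 736 to 828 and 2039. In each gene medulloblastoma 1 was above the cerebellum and the other tumours below it. At the other probe sets of the 3 genes that averaged at least 100 in signal this pattern did not recur; the second one of Syt4 read 960, 690, 520 and 721 against 1038, below in all 4.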

How the results depend on the processing

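With 1 cerebellum array, 13 of the 43 differences had an SE above 0.5, and only large ones could be called. The median difference of the synapse genes stayed below 0 under 18 alternatives, from -0.61 within the hmk arrays to -0.03 for the ken tumours with the cerebellum, where relative to all genes it was 0.02; leaving out single tumours gave -0.51 to -0.18. The count of lower genes, 1, became 0 with all probe sets averaged, with no variance trend and with the ken tumours, and 12 (1 higher) within the hmk arrays. Leaving out a tumour gave 0 to 7. Calls over all 14109 genes moved too, from 25 lower to 841 within the hmk arrays and 383 without medulloblastoma 1. They fell to 0 lower with no variance trend and without medulloblastoma 2 or 4, and to 5 with all probe sets averaged. Dlg2 stayed between -2.15 and -1.78, with adjusted p-values from 0.000706 to 0.115 (limma). No paired analysis was possible because 1 cerebellum array faces 4 tumours.

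In all, 27 genes kept their sign under each alternative and 16, none of them called, did not. With equal medians the differences became 0.12 (Sv2a), 0.16 (Sv2b), 0.0686 (Cplx2), 0.0396 (Napb), 0.15 (Bsn), 0.16 (Sh3gl2), 0.0628 (Nrxn2) and 0.0173 (Gphn), and with quantile normalization -0.0435 (Syt11). With all probe sets averaged they were 0.20 (Sv2b), 0.34 (Rab3c), -0.13 (Syt11), 0.10 (Sh3gl2) and 0.24 (Gphn). Within the hmk arrays they were -0.0816 (Syt11), -0.28 (Nsf), -0.85 (Dnm1) and -0.38 (Camk2b). The ken tumours gave 0.16 (Sv2a), 0.26 (Sv2b), 0.94 (Vamp1), 0.21 (Cplx2), 0.28 (Napb), 0.50 (Rims1), 0.58 (Bsn), 0.41 (Sh3gl2), 0.0406 (Nrxn2) and 0.20 (Nrxn3). Leaving out 1 tumour gave -0.30 to 0.19 for Bsn, -0.13 to 0.32 for Camk2b, -0.28 to 0.0894 for Cplx2, -0.46 to 0.53 for Dnm1, -0.56 to 0.12 for Napb, -0.12 to 0.33 for Nsf, -0.59 to 0.11 for Rims1, -0.29 to 0.15 for Sh3gl2, -0.38 to 0.22 for Sv2a, -0.23 to 0.0756 for Sv2b, -0.00169 to 0.19 for Syt11 and -0.85 to 0.57 for Vamp1. Fewer arrays enter the fits by prefix and without a tumour; for the other alternatives the cause was not tested.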
